A study of Caenorhabditis elegans with 12 samples.

Results

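The heat shock response of *hsf-1*(*sy441*) mutants of the nematode *Caenorhabditis elegans* was measured in 6 of the 12 libraries of the study. Heat-shocked *hsf-1*(*sy441*) animals (3 libraries, strain TTV450) were exposed to 35 °C during 30 min and recovered at 20 °C for 1 h before RNA isolation, and untreated *hsf-1*(*sy441*) animals (3 libraries, the same strain) stayed at 20 °C. All were whole animals on day 1 of adulthood that carry the *sy441* allele in every tissue, were synchronized and were fed *Escherichia coli* OP50. The product of *sy441* is considered to lack part of the transactivation domain of HSF-1, so the animals are not a null, and the strain is an outcrossed line. The other 6 libraries, 3 of heat-shocked and 3 of untreated wild-type N2 animals of the same age, entered the same statistical model and are given where the mutant response is set beside that of wild type. The comparison asks which genes still respond to heat when HSF-1 is impaired.

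HSF-1 is the conserved heat shock transcription factor. When proteins unfold, it forms trimers, binds heat shock elements in the promoters of chaperone genes and raises their transcription. Small heat shock proteins, in *C. elegans* above all those of the *hsp-16* genes, hold unfolding proteins without using ATP, and HSP70 proteins refold them with ATP and DnaJ co-chaperones. Other pathways can answer heat as well, among them the response to unfolded proteins in the endoplasmic reticulum (ER), which raises the ER chaperone gene *hsp-4*, and immune and detoxification genes of the intestine.

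Poly-A RNA was sequenced, and values are raw read counts per gene, shown here as CPM, the count of a gene relative to the TMM-scaled library total. Total counts were between 68188334 and 76816739 in heat-shocked sy441 libraries and between 81092647 and 90082126 in untreated sy441 libraries, and between 74630981 and 109248499 in the N2 libraries. On the first principal component of the 6 libraries, which held 33.6% of the variance, both replicate 1 libraries stood apart, at -86 for heat shock and -55 for control, while the other 4 lay between 4.30 and 57.6. Heat shock separated the libraries on the second component (26% of the variance), at 30.7 to 65.2 in heat-shocked and -55.5 to -36.1 in untreated animals. Ribosomal RNA took 7.34% of the counts in heat shock replicate 1 and 7.41% in control replicate 1, against 1.01% to 4.21% in the other 10 libraries of the study. Its part in the results was not tested. Markers of intestine, body wall muscle, pharynx, neurons, hypodermis, germ line and sperm were all detected in whole animals, and 6 of 8 markers of the early embryo passed the filter on low counts. *hsf-1* itself (WBGene00002004, chromosome I from 11953507 to 11963085 of WBcel235) had 76.6, 129 and 101 CPM in heat-shocked sy441 animals, against 83.4, 109 and 86.4 CPM in untreated sy441 animals (log2 change 0.14 ± 0.29 SE, edgeR adjusted p = 1). Its libraries overlapped. Since *sy441* changes the coded protein, these counts per gene do not check the genotype labels.

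Heat shock left 50 genes higher and 52 lower in *hsf-1*(*sy441*) mutants, 0.279% and 0.29% of the 17946 genes tested. The rises included the chaperone genes *hsp-16.2*, *hsp-16.41*, *hsp-16.1*, *hsp-16.11*, *hsp-70*, *F44E5.4* and *F44E5.5*, and genes outside the chaperone lists such as *rpr-1* and *C25F9.2*. Among the falls were the haem transporter gene *hrg-4*, the elongase gene *elo-6*, the scavenger receptor gene *scav-4* and the transporter genes *aat-6* and *amt-4*. Rises were the larger changes, with a median log2 change (heat shock over control) of 3.43 for the 50 genes, while the median among the 52 lower genes was -1.79 and that of all tested genes was 0.00 to 2 decimals. Calls are genes with an adjusted p under 0.05 in edgeR's quasi-likelihood test over all 12 libraries. In all 102 called genes the 3 heat-shocked libraries did not overlap with the 3 untreated ones, as was also so of 5.37% of all tested genes above and 6.68% below. Of the called genes, 96 code for proteins, and 23 overlap a gene on the opposite strand, from which reads cannot be told apart without the strand setting.

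The counts depended on how the libraries were fitted. Libraries with the same replicate number deviated together in sy441 animals, and a fit of only the 6 sy441 libraries that blocks on replicate number (the paired fit) called 263 genes higher and 356 lower, 1.53% and 2.07% of 17159. Of the 50 higher genes 46 were also called there, and of the 52 lower genes all 52. The pairing comes from these same data and not from the labels, so calls of the paired fit are no independent support. Without both replicate 1 libraries, 59 genes were higher and 26 lower. Without single libraries, there were between 17 higher genes (sy441 control replicate 2 left out) and 86 (replicate 1 of that group left out), and between 15 lower genes (sy441 heat shock replicate 3 left out) and 87 (N2 control replicate 3 left out). Leaving out each of the 12 libraries in turn, 16 of the higher and 12 of the lower genes were called in every fit. The 16 were *hsp-16.1*, *hsp-16.2*, *hsp-16.11*, *hsp-16.41*, *hsp-70*, *F44E5.4*, *F44E5.5*, *ckb-2*, *C25F9.2*, *F10A3.1*, *clec-221*, *Y53F4B.8*, *Y53F4B.26*, *Y54G2A.28*, *rpr-1* and *E02D9.3*. Of the 16, *hsp-70*, *F44E5.4*, *F44E5.5* and *rpr-1* were not called when the sy441 libraries were fitted alone without a block. The 12 were *aat-4*, *aat-6*, *amt-4*, *elo-6*, *ifc-1*, *pept-1*, *hrg-4*, *drd-1*, *ugt-47*, *F23F12.3*, *hacd-1* and *acp-6*. For the other genes named below as higher or lower, the fits without a sy441 library in which the call was lost are given beside them. *C18E9.5*, *K08F9.1*, *R03H10.6*, *ZK1240.1*, *acox-1.3*, *acs-5*, *asp-13*, *cdr-4*, *clec-56*, *fbxa-163*, *fbxa-27*, *lips-11*, *lips-6*, *spp-21* and *vit-1* also lost it in at least 1 fit without an N2 library. Of the 102 called genes, 23 had a fold change that moved by more than 1.5 times when 1 library was left out, by 1.52 to 4.18 times. Leaving out sy441 heat shock replicate 1 moved 14 of them, sy441 control replicate 1 moved 9 and replicate 3 of the controls moved 1. Among the genes named below, heat shock replicate 1 had this effect on *hsp-70*, *F44E5.4*, *F44E5.5*, *rpr-1*, *C25F9.2*, *Y53F4B.7*, *Y53F4B.8*, *clec-221*, *F08G2.5*, *spp-21*, *ZK1240.1* and *K08F9.1*, control replicate 1 on *Y53F4B.24*, *Y53F4B.26*, *fbxa-163*, *lips-6*, *R03H10.6* and *Y47H10A.5*, and control replicate 3 on *Y53F4B.24*.

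All 6 *hsp-16* genes, which encode small heat shock proteins, were higher in heat-shocked sy441 animals, with a median log2 change of 4.26. Their summed level was 3608, 1677 and 2412 CPM in heat-shocked sy441 animals, against 211, 115 and 169 CPM in untreated sy441 animals. The genes lie on chromosome V as a divergent pair, *hsp-16.2* and *hsp-16.41*, and as a block of 4, *hsp-16.1*, *hsp-16.48*, *hsp-16.49* and *hsp-16.11*. *hsp-16.2* (WBGene00002016, from 1804334 to 1804957) had 196, 95.9 and 138 CPM in heat-shocked sy441 animals, against 0.904, 2.41 and 2.38 CPM in untreated ones (143 ± 50.5 and 1.90 ± 0.86, SD, n = 3 each). Every heat-shocked library was far above every untreated one, and the log2 change was 6.24 (± 0.48 SE, edgeR adjusted p = 0.000122). Its neighbour *hsp-16.41* had 275, 126 and 184 CPM after heat shock, against 2.25, 1.97 and 3.31 CPM without it (log2 change 6.28, edgeR adjusted p = 0.000604).

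The genes of the second cluster had smaller log2 changes, between 3.49 and 4.26. *hsp-16.1* (WBGene00002015, from 9087293 to 9087782) had 631, 354 and 508 CPM in heat-shocked sy441 animals, against 33.6, 21.7 and 22.4 CPM in untreated ones (log2 change 4.26 ± 0.40 SE, edgeR adjusted p = 0.000352). *hsp-16.48* (WBGene00002019, from 9088131 to 9088617) had 924, 372 and 538 CPM, against 70.5, 33.3 and 59.1 CPM (log2 change 3.49 ± 0.63 SE, edgeR adjusted p = 0.0254). The libraries of both genes were separate, but the call of *hsp-16.48* was lost without sy441 control replicate 2 (adjusted p = 0.176), sy441 control replicate 3 (0.0739), sy441 heat shock replicate 3 (0.0725) or N2 control replicate 3 (0.0788), and that of *hsp-16.49* in the same 4 fits (up to 0.169). In the paired fit both stayed called, *hsp-16.48* at an adjusted p of 9.19e-06. *hsp-16.11* and *hsp-16.49* are near-identical copies of *hsp-16.1* and *hsp-16.48*, and the counts of the copies were nearly equal in each library, with a ratio of 0.967 to 1.00 for *hsp-16.1* over *hsp-16.11*. How reads that match both copies were assigned is not given, so the 4 genes are closer to 2 measurements than to 4.

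**Figure D1:**
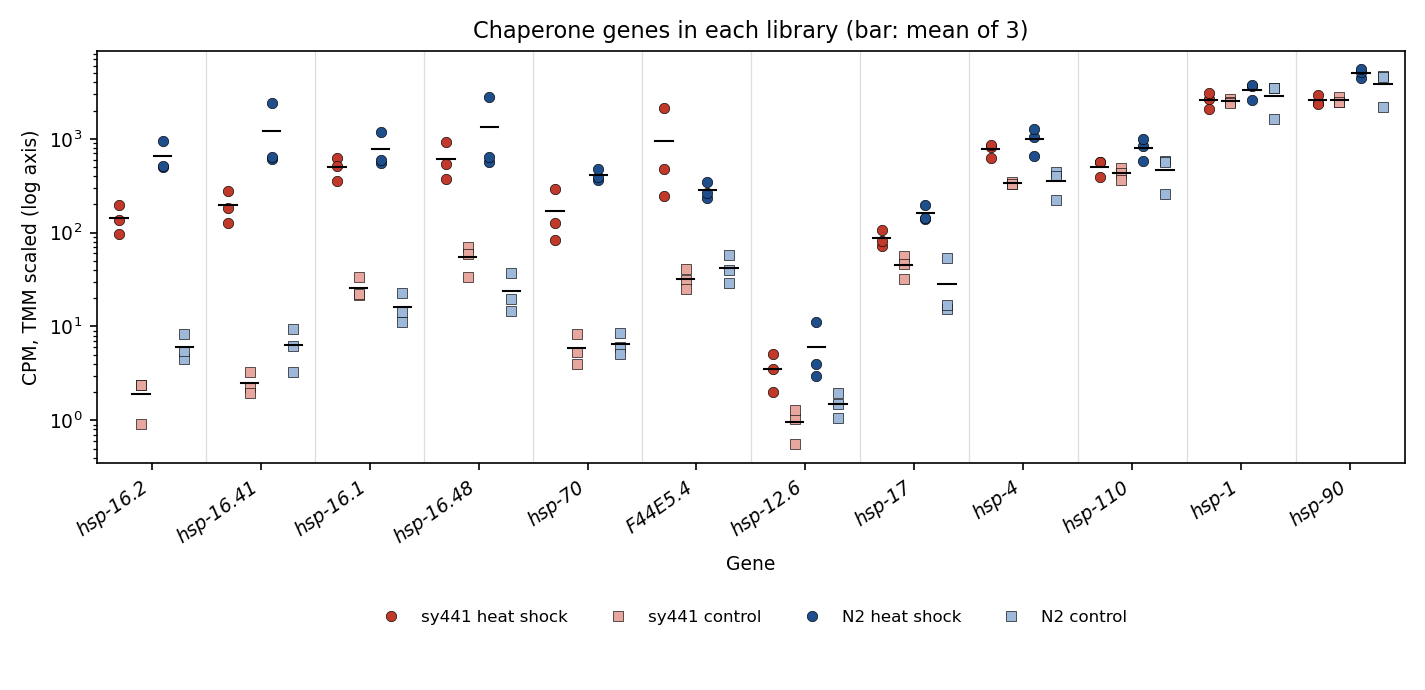
Level of 12 chaperone genes in every library, in CPM on a log axis, with a point for each library and a bar for the mean of 3 in the order heat-shocked sy441, untreated sy441, heat-shocked N2, untreated N2. In sy441 animals *hsp-16.2* lay between 95.9 and 196 CPM after heat shock and between 0.904 and 2.41 CPM without it, while the libraries of *hsp-1*, *hsp-110* and *hsp-90* overlapped.

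Of 5 tested genes for HSP70 proteins of the cytosol, the 3 heat-inducible ones were higher and the constitutive *hsp-1* and the large relative *hsp-110* were not called. *hsp-70* (WBGene00002026, chromosome I from 9320325 to 9322519) had 295, 82.5 and 128 CPM in heat-shocked sy441 animals, against 8.22, 5.32 and 3.94 CPM in untreated ones (log2 change 4.85 ± 0.47 SE, edgeR adjusted p = 0.000352). The groups did not overlap, although the call was lost when the sy441 libraries were fitted alone without a block (0.0626). *hsp-70* overlaps *uggt-2* on the opposite strand, and the strand setting of the counting is not given. *F44E5.4* (WBGene00009691, chromosome II from 11757107 to 11759311) had 2127, 244 and 471 CPM, against 40.7, 30.9 and 24.9 CPM (log2 change 4.88 ± 0.67 SE, edgeR adjusted p = 0.00588). Replicate 1 stood far above the other heat-shocked libraries, and without it the log2 change was 3.51 (adjusted p = 0.000739). In the paired fit *F44E5.4* was not called (adjusted p = 0.112), nor was it without N2 control replicate 3 and N2 heat shock replicate 1, which stand apart from their groups (0.0839, tried after the data were seen). The call of *F44E5.4* was also lost when the sy441 libraries were fitted alone without a block (0.282). *F44E5.5*, its near-identical neighbour on the other strand, had the same pattern (log2 change 4.85, paired adjusted p = 0.111).

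In each of the 6 *hsp-16* genes and 3 HSP70 genes that were higher, heat shock replicate 1 had the highest and replicate 2 the lowest level of the 3 heat-shocked libraries. Replicate 1 is also the library with the larger share of ribosomal RNA, whose part in this order was not tested. Without both replicate 1 libraries, the log2 change of *hsp-16.2* was 5.62 (edgeR adjusted p = 0.00266), that of *hsp-70* was 4.52 (0.00159) and that of *F44E5.4* was 3.69 (0.0067), while *hsp-16.48* was no longer called (3.30, 0.211).

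Outside these families no chaperone gene was called over all libraries. Of 10 other small heat shock proteins none was called by edgeR, with 2 at an unadjusted p under 0.05, 1 called by DESeq2 and 1 in the paired fit, and a median log2 change of 0.17. *hsp-17* had 108, 72.1 and 81.2 CPM in heat-shocked sy441 animals, against 56.8, 31.8 and 46.7 CPM in untreated ones. Its groups were separate, with a log2 change of 0.95 that was called in the paired fit (adjusted p = 0.00337) but neither in the fit of all libraries (0.645) nor with the sy441 block inside it (0.615). *hsp-12.6* had 5.03, 2.02 and 3.55 CPM, against 0.555, 1.04 and 1.29 CPM, and was not called in either fit (log2 change 1.88, edgeR adjusted p = 0.202 and 0.0584 when paired). The lists of HSP90 and chaperone cofactors (16 tested genes), DnaJ co-chaperones (29), the CCT chaperonin and prefoldin (14), regulators of *hsf-1* (15, with *hsf-1*) and the proteasome (33) held no gene called by edgeR, by DESeq2 or in the paired fit, nor any at an unadjusted p under 0.05. *hsp-1*, the constitutive HSP70, had 2669, 3056 and 2091 CPM after heat shock, against 2633, 2466 and 2389.9 CPM (log2 change 0.06 ± 0.29 SE, edgeR adjusted p = 1). *hsp-90* had a log2 change of -0.01 (SE 0.27, edgeR adjusted p = 1).

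**Figure D2:**
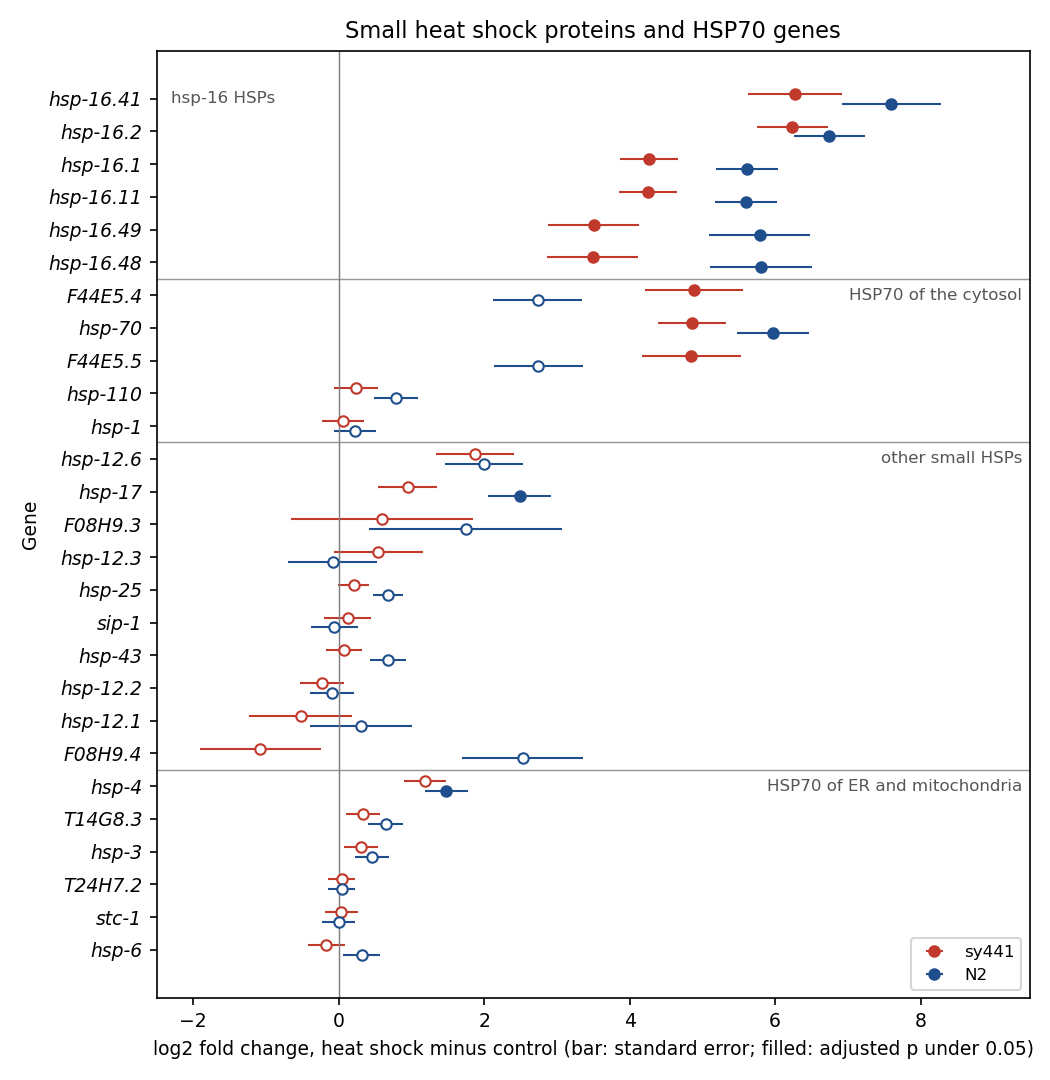
Log2 fold change of heat-shocked against untreated animals for each tested small heat shock protein and HSP70 gene, in sy441 (above) and N2 (below), with bars for the standard error and filled points for an adjusted p under 0.05. All 6 *hsp-16* genes were called in both genotypes, *hsp-4* and *hsp-17* in N2, and *F44E5.4* and *F44E5.5* in sy441.

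In the ER branch, 2 of 32 tested genes of the unfolded protein response were higher and none lower, *ckb-2* and *lips-11*, with a median over the list of 0.12 (log2). *ckb-2* (WBGene00000512, chromosome III from 4367949 to 4370160), a choline kinase for the first step of phosphatidylcholine synthesis from choline, had 63.9, 63.4 and 55.4 CPM in heat-shocked sy441 animals, against 16.12, 13.8 and 13 CPM in untreated ones. The spread within the groups was small and the log2 change was 2.09 (SE 0.24, edgeR adjusted p = 0.00194). *lips-11*, a lipase-like gene, had 24.5, 12.6 and 10.6 CPM, against 3.09, 4.33 and 2.87 CPM (log2 change 2.22, edgeR adjusted p = 0.0312), and its call was lost in 5 of 6 fits without a sy441 library (adjusted p up to 0.135) and without N2 heat shock replicate 2 (0.0574). *hsp-4*, the ER HSP70 chaperone known as BiP, had 822, 858 and 630.4 CPM after heat shock, against 329, 350.0 and 332 CPM without it. These groups were far apart, and *hsp-4* was called in the paired fit (adjusted p = 0.0019) but not in the fit of all libraries (log2 change 1.19 ± 0.29 SE, edgeR adjusted p = 0.107) or with the sy441 block inside it (0.164). The other ER HSP70, *hsp-3*, and the mitochondrial chaperones *hsp-6* and *hsp-60* had log2 changes of 0.31, -0.17 and -0.24 with overlapping libraries.

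Among the largest rises were genes outside the chaperone families. *rpr-1* (WBGene00045238, chromosome I from 13463955 to 13464207), the RNA of ribonuclease P, which trims the 5′ ends of transfer RNA precursors, had 99.5, 17.2 and 18.5 CPM in heat-shocked sy441 animals, against 0.422, 0.0968 and 0.428 CPM in untreated ones (log2 change 7.15 ± 0.96 SE, edgeR adjusted p = 0.0057). Without heat shock replicate 1 the log2 change was 5.86, and the call was lost when the sy441 libraries were fitted alone without a block (adjusted p = 0.169). *rpr-1* lies within the bounds of *ints-8* on the opposite strand. The libraries were made from poly-A RNA, so the counts of *rpr-1* do not measure molecules of this RNA without a poly-A tail. *C25F9.2* (WBGene00007723, chromosome V from 19421471 to 19426774) had 57.3, 13.1 and 12.2 CPM, against 0.362, 0.133 and 0.214 CPM (log2 change 6.85 ± 0.86 SE, edgeR adjusted p = 0.00373). In both genes every heat-shocked library was above every untreated one, and replicate 1 was the highest. The log2 change of *C25F9.2* was 5.78 without it. *F10A3.1* had 3.77, 2.11 and 1.99 CPM, against 0.0482, 0.0968 and 0.0476 CPM (log2 change 5.32, edgeR adjusted p = 0.00682). *Y54G2A.28*, with 13, 9.46 and 9.31 CPM, against 0.446, 0.411 and 0.44 CPM, was among the genes with the tightest replicates (log2 change 4.61 ± 0.44 SE, edgeR adjusted p = 0.000352). *F08G2.5* had 192, 42.8 and 70.8 CPM, against 13.2, 6.94 and 4.45 CPM (log2 change 3.64, edgeR adjusted p = 0.00882). Its call was lost without sy441 control replicate 2 (0.0906) and when the sy441 libraries were fitted alone without a block (0.269).

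Of the higher genes, 5 belong to the *Y53F4B* genes of chromosome II, a set that was looked at after its values were seen. They lie between 14992898 and 15140981, a stretch of 148084 bp in which 25 genes were tested and the other 20 were not called. The stretch is bounded by the called genes themselves. Of these, the pseudogene *Y53F4B.8* had 27.5, 5.61 and 8.42 CPM in heat-shocked sy441 animals, against 1.17, 0.859 and 0.714 CPM in untreated ones (log2 change 3.92, edgeR adjusted p = 0.00588, and 2.97 without heat shock replicate 1). *Y53F4B.26* had 2.48, 0.937 and 1.92 CPM, against 0.0241, 0 and 0.0119 CPM (log2 change 7.04, edgeR adjusted p = 0.00195). Both groups of libraries were separate in each gene. *Y53F4B.7* (log2 change 5.90, edgeR adjusted p = 0.00918) lost its call without sy441 control replicate 2 (0.0847). *Y53F4B.24* (5.26, 0.0205) lost it without sy441 control replicate 2 or heat shock replicate 3 (up to 0.129), and *Y53F4B.62* (4.48, 0.0257) in 3 of 6 such fits (up to 0.129). The call of *Y53F4B.24* was also lost when the sy441 libraries were fitted alone without a block (0.149). In N2 animals all 5 were higher too, as was 1 more gene of the stretch, and *Y53F4B.24*, without a count in untreated N2 animals, was at least 1849-fold higher there, with a floor of 3 counts taken for the untreated group. All 5 remained called in the paired fit.

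Some of the called genes lie close to each other. Of them, 18 higher and 6 lower ones lay within 20000 bp of another called gene, and 18 of the 19 pairs that they formed changed in the same direction. These pairs include the near-identical copies among the *hsp-16* genes and *F44E5.4* with *F44E5.5*, whose agreement is not independent. The same shares over all tested genes were not computed. Besides the heat shock protein clusters and *Y53F4B*, the pairs were *Y47H10A.5* with *M01G12.9*, *R03H10.6* with *R03H10.7*, *Y16B4A.2* with *tatn-1* and the 3 *acox-1* genes, with *C18E9.5* and *C18E9.9* as the pair of opposite directions. In fits without a sy441 library the call was lost in 6 of 6 for *C18E9.5*, 5 for *R03H10.6*, 3 each for *R03H10.7* and *Y16B4A.2*, 2 for *C18E9.9* and 1 each for *Y47H10A.5* and *M01G12.9* (adjusted p up to 0.253 in *R03H10.6*). The higher genes numbered 16 of 3187 tested on chromosome II, 15 of 3811 on chromosome V and 1 of 2997 on chromosome IV. Those on II include the called *Y53F4B* genes, *F44E5.4* and *F44E5.5*, and those on V include the *hsp-16* genes.

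Genes of defence and detoxification gave few calls in each family. *clec-221* (WBGene00008916, chromosome V from 10953453 to 10954434), which encodes a C-type lectin, a class of sugar-binding proteins of the immune response, had 30.9, 10.7 and 11.9 CPM in heat-shocked sy441 animals, against 1.15, 0.52 and 0.476 CPM in untreated ones (log2 change 4.64 ± 0.53 SE, edgeR adjusted p = 0.00172). It overlaps *F17C11.4* on the opposite strand. It was the only one of 159 tested C-type lectin genes to be higher, while *clec-7* and *clec-56* were lower. *clec-7* had 0.585, 0.696 and 1.24 CPM, against 4.79, 3.75 and 4.46 CPM (log2 change -2.36, edgeR adjusted p = 0.0164), and lost its call without sy441 heat shock replicate 2 (0.0711). *clec-56* (-1.19, 0.0363) lost it in 5 of 6 fits without a sy441 library (up to 0.178).

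Of 68 tested genes for antimicrobial peptides, *spp-21* and *fipr-24* were higher and none was lower. The list as a whole had a median log2 change of -0.21, with 22 of the 68 genes positive. *spp-21*, for a saposin-like protein, had 9.68, 0.937 and 0.954 CPM after heat shock and no count in any untreated sy441 library, which makes it at least 296-fold higher with the same floor, a bound that covers counting error only. Heat shock replicate 1 held 645 of its counts, against 70 and 78 in the others, and without it the bound was 78.7-fold. Its edgeR adjusted p was 0.0393, DESeq2 gave it no adjusted p, and the call was lost in 4 of 6 fits without a sy441 library (up to 0.151). *fipr-24* had 11.4, 4.98 and 7.52 CPM, against 1.5, 1.23 and 1.81 CPM (log2 change 2.39, edgeR adjusted p = 0.0176), and lost its call without sy441 control replicate 2 or heat shock replicate 3 (up to 0.131). Without a count in untreated animals, the pseudogene *srz-36* was likewise at least 79.4-fold higher and *ZK1240.1* at least 64.9-fold higher (31.9-fold without heat shock replicate 1), each with under 1 CPM on average after heat shock. Their edgeR adjusted p was 0.0128 and 0.0348, and their calls were lost in 2 and 4 of 6 fits without a sy441 library (up to 0.0582 and 0.142).

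Detoxification genes gave single calls as well. *gst-24*, the only one of 42 glutathione S-transferase genes to be called, had 46.4, 17.9 and 23.1 CPM in heat-shocked sy441 animals, against 8.31, 3.34 and 3.86 CPM in untreated ones (log2 change 2.50 ± 0.41 SE, edgeR adjusted p = 0.0128, lost without sy441 control replicate 2 at 0.0996). *pgp-8*, an ABC transporter of the P-glycoprotein family, had 13.8, 20.3 and 19.1 CPM, against 1.71, 1.44 and 1.37 CPM (log2 change 3.56, edgeR adjusted p = 0.00798, lost without sy441 control replicate 2 at 0.0679). It was named after its values were seen and was the only one of 15 *pgp* genes to be called. In *cdr-4*, a gene named for its response to cadmium, the levels were 79, 72.8 and 79.7 CPM, against 26.5, 12.9 and 25.5 CPM (log2 change 1.84, edgeR adjusted p = 0.045). Its call was lost in all 6 fits without a sy441 library (up to 0.253). The paired fit called it (0.000839), which is no independent support. It was the only one of 18 metal response genes to be called over all libraries. *fbxa-163* and *fbxa-27*, which encode F-box proteins of the kind that select targets for ubiquitin ligases, were higher among 336 F-box genes. At an unadjusted p under 0.05, 31 F-box genes were higher and 5 lower, and DESeq2 called 13 higher and 2 lower. Over all 17946 tested genes these counts were 534 and 690, and 186 and 220 by DESeq2. *fbxa-163* had 9.53, 25.4 and 21.1 CPM, against 3.03, 0.847 and 0.393 CPM (log2 change 3.71, edgeR adjusted p = 0.0363), was not called in the paired fit (0.239) and was lost in 4 of 6 fits without a sy441 library (up to 0.216). *fbxa-27* (2.02, 0.0363) was lost in 4 such fits too (up to 0.237).

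Several genes of nutrient uptake fell, a grouping that was made after their values were seen. *hrg-4* (WBGene00009493, chromosome IV from 11030143 to 11030993), a haem transporter of the intestine, had 0.795, 1.08 and 1.38 CPM in heat-shocked sy441 animals, against 6.58, 11.4 and 16.6 CPM in untreated ones (log2 change -3.40 ± 0.51 SE, edgeR adjusted p = 0.00827). The groups did not overlap. All 9 tested *hrg* genes had a negative log2 change, with a median of -1.69, but *hrg-4* was the only one called over all libraries, and 3 were called in the paired fit. *hrg-1*, a haem transporter of endosomes, had 12.9, 5.82 and 10.7 CPM, against 27, 48.5 and 42.3 CPM (log2 change -2.0, edgeR adjusted p = 0.0816, 0.0295 when paired). *pept-1* (WBGene00003877, chromosome X from 6456872 to 6461767), which carries di- and tripeptides into the intestine, had 12.4, 16.08 and 13 CPM, against 32, 41.6 and 43.5 CPM (log2 change -1.50 ± 0.20 SE, edgeR adjusted p = 0.0057).

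Of 9 tested *aat* genes for amino acid transporters, *aat-4* and *aat-6* fell. *aat-4* had 2.91, 2.85 and 2.96 CPM in heat-shocked sy441 animals, against 12, 8.89 and 8.13 CPM in untreated ones (log2 change -1.73 ± 0.24 SE, edgeR adjusted p = 0.00588). *aat-6* had 1.38, 1.11 and 1.63 CPM, against 8.19, 6.87 and 5.56 CPM (log2 change -2.32, edgeR adjusted p = 0.00894). In both the heat-shocked libraries lay close together and below every untreated one. *amt-4*, an ammonium transporter and the only one of 4 *amt* genes to be called or to have a negative log2 change, had 4.89, 2.97 and 6.74 CPM, against 29.3, 20.3 and 21 CPM (log2 change -2.27, edgeR adjusted p = 0.00767). *scav-4*, a relative of the lipid receptor CD36, had 2.09, 1.04 and 1.16 CPM, against 11.8, 5.82 and 8.16 CPM (log2 change -2.59, edgeR adjusted p = 0.00798, lost without sy441 heat shock replicate 3 at 0.0606). *nrf-6*, an intestinal membrane protein, fell as well (log2 change -1.57, edgeR adjusted p = 0.0087, lost without sy441 heat shock replicate 3 at 0.0566). Without both replicate 1 libraries, *aat-6* and *amt-4* were no longer called (adjusted p of 0.0804 and 0.0891).

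**Figure D3:**
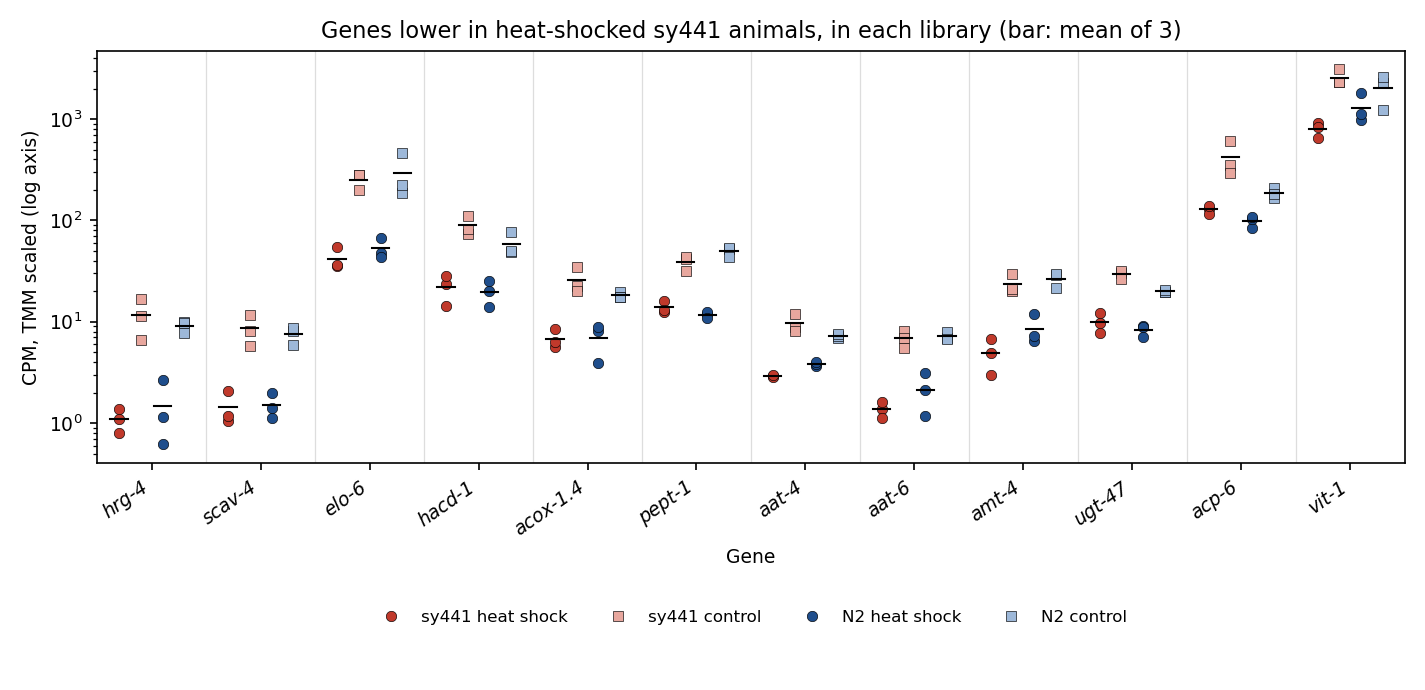
Level of 12 genes that were lower in heat-shocked sy441 animals, in CPM on a log axis, with a point for each library and a bar for the mean of 3 in the order heat-shocked sy441, untreated sy441, heat-shocked N2, untreated N2. In all 12 genes the 3 heat-shocked sy441 libraries lay below the 3 untreated ones, for example at 2.85 to 2.96 CPM, against 8.13 to 12 CPM, in *aat-4*.

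Several of these genes are expressed in the intestine, and whole-animal RNA cannot tell fewer intestinal cells or less RNA per cell from a change within them. Of 8 intestine markers 1 was lower, *pept-1*, and none was higher, with a median log2 change of -0.43. Their summed level was 2815, 2136 and 2114 CPM in heat-shocked sy441 animals, against 3916, 2593 and 2747 CPM in untreated ones, and these ranges overlapped, although the sum was lower in the heat-shocked library of each same-numbered pair. The part of intestinal RNA as a whole in the falls was not tested. None of the 7 other marker lists held a call by edgeR over all libraries or by DESeq2, with 1 neuronal marker at an unadjusted p under 0.05 that was also called in the paired fit.

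Genes of lipid metabolism were among the falls as well, of which *hacd-1* and the *acox* genes were chosen after their values were seen. *elo-6* (WBGene00001244, chromosome IV from 5386629 to 5388559), an elongase for branched-chain fatty acids, had 35.1, 36.1 and 54.8 CPM in heat-shocked sy441 animals, against 277, 199 and 282 CPM in untreated ones (log2 change -2.59 ± 0.35 SE, edgeR adjusted p = 0.0057). The groups were far apart, and without both replicate 1 libraries the log2 change was -2.40, although the call was lost (0.0882). It was the only *elo* gene of 9 to be called, and 8 of the 9 had a negative log2 change. *hacd-1*, a hydroxyacyl-CoA dehydrogenase of fatty acid oxidation, had 14.2, 23.7 and 28 CPM, against 111, 74.1 and 82.2 CPM (log2 change -2.02, edgeR adjusted p = 0.0087, lost without both replicate 1 libraries at 0.0891).

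The peroxisomal acyl-CoA oxidase genes *acox-1.2*, *acox-1.3* and *acox-1.4*, which lie next to each other on chromosome I and whose products shorten fatty acids and the side chains of ascaroside pheromones, fell together. *acox-1.4* (WBGene00008567, from 12951134 to 12954003) had 8.48, 5.57 and 6.28 CPM in heat-shocked sy441 animals, against 34.6, 22.7 and 20.1 CPM in untreated ones (log2 change -1.93, edgeR adjusted p = 0.016, lost without sy441 heat shock replicate 2 or 3 at up to 0.102). *acox-1.2* had 7.28, 4.2 and 5.20 CPM, against 27.1, 17 and 13.5 CPM (log2 change -1.79, edgeR adjusted p = 0.0263, lost in 3 of 6 fits without a sy441 library at up to 0.168). *acox-1.3*, between them, had 6.26, 6.68 and 6.21 CPM, against 19.3, 14.9 and 11.9 CPM (log2 change -1.27, edgeR adjusted p = 0.041, lost in all 6 such fits at up to 0.199). All 3 were called in the paired fit. Their neighbour *acox-1.1* had 39.4, 18.7 and 25.7 CPM, against 63.0, 29.1 and 27.3 CPM, with overlapping libraries (log2 change -0.51, edgeR adjusted p = 1). Of the 77 tested genes for desaturases, elongases, acyl-CoA synthetases and lipases, *elo-6*, *acs-5* and *lips-6* were lower and *lips-11* was higher. The acyl-CoA synthetase gene *acs-5* changed by -1.05 on the log2 scale (edgeR adjusted p = 0.045, lost in all 6 fits without a sy441 library at up to 0.215). *lips-6* had no count in heat-shocked sy441 animals, against 0.953, 0.169 and 0.5 CPM in untreated ones, and was at least 40.2-fold lower (the edgeR adjusted p was 0.0291, lost in 5 such fits at up to 0.104).

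Other genes that fell were of mixed kinds, and were named after their values were seen unless they belong to a list. *vit-1*, for a yolk protein, had 920.5, 651 and 839.6 CPM in heat-shocked sy441 animals, against 3084, 2309 and 2311 CPM in untreated ones (log2 change -1.68 ± 0.31 SE, edgeR adjusted p = 0.0318). It was the only one of 6 yolk protein genes to be called, and the call was lost in all 6 fits without a sy441 library (up to 0.17) and without N2 heat shock replicate 2 (0.0568). *acp-6*, an acid phosphatase, had 129.9, 116 and 139.9 CPM, against 604, 352 and 297 CPM (log2 change -1.70, edgeR adjusted p = 0.00798). *asp-13*, an aspartyl protease, had 18.7, 39.3 and 42.4 CPM, against 61.2, 211 and 177 CPM (log2 change -2.16, edgeR adjusted p = 0.031, lost in 5 of 6 such fits at up to 0.127). All 3 genes had separate groups. *ugt-47*, which encodes a UDP-glucuronosyltransferase that conjugates small molecules, had 9.72, 7.78 and 12.1 CPM, against 30.2, 31.9 and 26.1 CPM (log2 change -1.58 ± 0.22 SE, edgeR adjusted p = 0.00588). *tatn-1*, the tyrosine aminotransferase, had 13.1, 8.73 and 10.2 CPM, against 30.8, 32.9 and 38.6 CPM (log2 change -1.68, edgeR adjusted p = 0.0087, lost without sy441 heat shock replicate 2 or 3 at up to 0.061). *ifc-1*, an intermediate filament gene, had 3.20, 3.81 and 4.1 CPM, against 9.37, 13.3 and 14.2 CPM (log2 change -1.73, edgeR adjusted p = 0.00682).

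Further falls of this size were in *K08F9.1* (log2 change -3.46, edgeR adjusted p = 0.0363), *H25K10.1* (-3.21, 0.0229) and the MATH domain gene *math-40* (-2.86, 0.00918). *math-40* had 0.825, 0.428 and 0.44 CPM in heat-shocked sy441 animals, against 5.12, 3.76 and 3.39 CPM in untreated ones, and lost its call without sy441 heat shock replicate 3 (0.0891). *K08F9.1* and *H25K10.1* lost theirs in 5 and 4 of 6 fits without a sy441 library (up to 0.199 and 0.0758). *F23F12.3* had 0.645, 1.2 and 0.734 CPM, against 4.90, 6.30 and 6.49 CPM (log2 change -2.77, edgeR adjusted p = 0.00588), and its groups were well separated. The nuclear receptor gene *nhr-193*, the only one of 230 nuclear hormone receptor genes to be called, had 0.69, 0.79 and 0.966 CPM, against 3.15, 4.21 and 3.75 CPM (log2 change -2.18, edgeR adjusted p = 0.0111, lost without sy441 control replicate 2 or heat shock replicate 3 at up to 0.0654).

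The paired fit, which called 1.53% of all its genes higher and 2.07% lower, made more calls in these lists and some in lists that had none. Of 159 C-type lectin genes it called 15 lower and 3 higher, of 65 UDP-glucuronosyltransferase genes 11 lower and 1 higher, and of the 77 fatty acid genes 11 lower and 1 higher. It also called 10 of 162 cuticle collagens, 4 of 72 cytochrome P450 genes and 3 of 13 lysozyme genes lower, and 10 of 336 F-box genes higher. Most of these calls were lost when the sy441 libraries were blocked on replicate number inside the fit of all 12 libraries, an alternative chosen after the data were seen. There the lower genes numbered 3 C-type lectins, 3 UDP-glucuronosyltransferases, 4 fatty acid genes, 1 lysozyme and no collagen or cytochrome P450, and 2 F-box genes were higher. Over all libraries edgeR called no collagen, cytochrome P450 or lysozyme gene, with 3 collagens higher and 10 lower at an unadjusted p under 0.05 (DESeq2 called 1 lower), 2 cytochrome P450 genes higher and 9 lower (DESeq2 called 3 lower), and 3 lysozyme genes lower (DESeq2 called 1). Of all 17946 tested genes 534 were higher and 690 lower at that p, and DESeq2 called 186 higher and 220 lower. Of 31 stress and immunity transcription factors, 3 were higher in the paired fit and none over all libraries, with 2 higher and 3 lower at an unadjusted p under 0.05 and 1 called each way by DESeq2. One of them, the bZIP gene *zip-10*, had 44.0, 18 and 21.7 CPM in heat-shocked sy441 animals, against 17.6, 5.03 and 4.78 CPM in untreated ones (log2 change 1.61, paired adjusted p = 0.00143, 0.22 over all libraries). Replicate 1 was the highest in both groups, and the groups were only just separate. The metal response gene *numr-1* was the extreme case, with 255, 5.90 and 8.86 CPM, against 65.8, 0.69 and 1.32 CPM (log2 change 1.99, edgeR adjusted p = 1, paired adjusted p = 0.000337). Its groups overlapped, while the heat-shocked library was the higher one in each same-numbered pair.

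**Figure D4:**
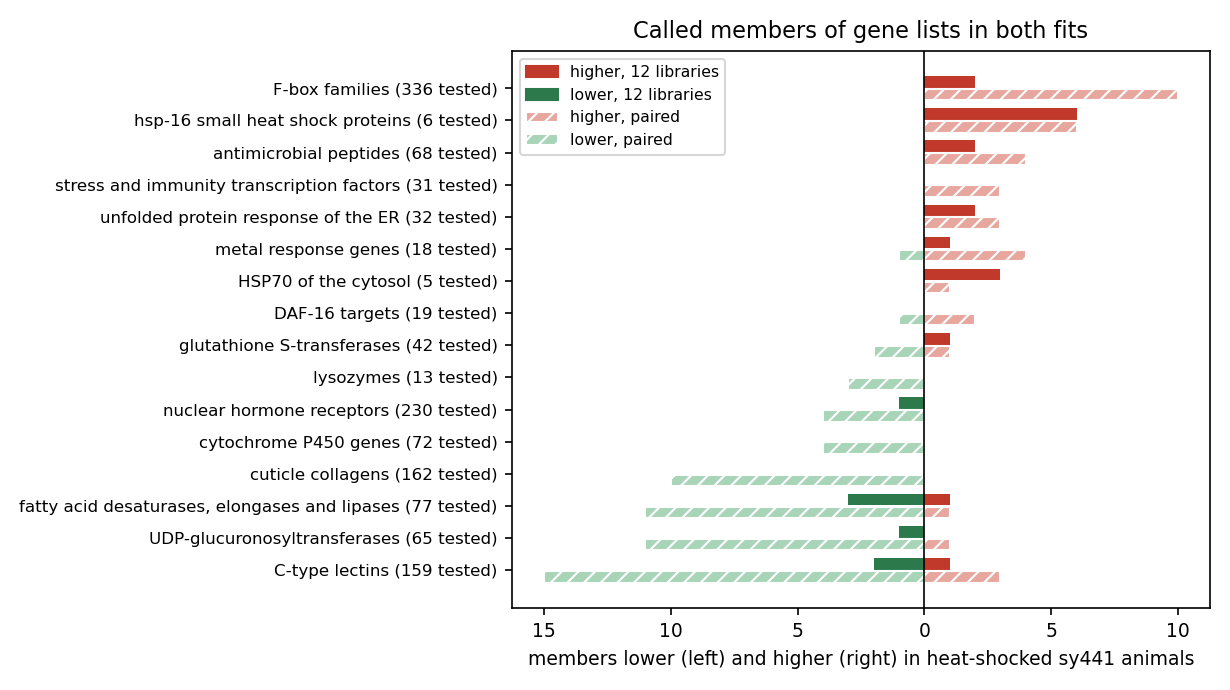
Number of genes called lower (left) and higher (right) in heat-shocked sy441 animals in lists with at least 3 calls in the fits together, over all 12 libraries (solid bars) and in the paired fit of the 6 sy441 libraries (hatched bars). The *hsp-16* genes had 6 calls in both fits, while the C-type lectins had 2 lower genes over all libraries and 15 in the paired fit.

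Some genes that the study discusses for contrasts of mutants with wild type, untreated or after heat shock, by sequencing or qPCR, were also followed. Here they were followed in another comparison, that of heat-shocked with untreated sy441 animals. Apart from *lips-11*, none of *asp-8*, *calu-1*, *dod-19*, *kin-5*, *lys-7*, *osg-1*, *pals-6*, *skr-5*, *sod-3* and *warf-1* was called by edgeR in the sy441 response or in its paired fit. Their log2 changes lay between -0.76 for *asp-8* and 0.06 for *skr-5*. The lysozyme gene *lys-7* had 266, 141 and 178 CPM in heat-shocked sy441 animals, against 517, 221 and 208 CPM in untreated ones (log2 change -0.70, edgeR adjusted p = 0.889, 0.0538 when paired). The cytosolic ribosomal proteins, major sperm proteins, oocyte genes and nuclear genes of oxidative phosphorylation held no call by edgeR, by DESeq2 or in the paired fit, and no gene at an unadjusted p under 0.05.

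Set beside wild type, fewer rises were called in the mutant, by a margin that depended on the fit. With only the groups compared, 53 genes were higher in sy441 and 88 in N2 animals. Without the N2 libraries that stand apart, 93 and 111 were. The values that follow are from the fit of all libraries. In N2 animals 140 genes were higher and 40 lower after heat shock, 0.78% and 0.223% of those tested. Of the genes higher in sy441 animals 32 were also higher in N2 animals, which is 64% of the sy441 and 22.9% of the N2 genes, and of the lower genes 25 were shared, 48.1% of the sy441 and 62.5% of the N2 genes. All 102 genes called in sy441 animals changed in the same direction in N2 animals, called or not. The share of all tested genes with the same direction in both genotypes was not computed. The log2 changes of the genotypes correlated at 0.334 (Pearson r) over all tested genes and at 0.725 over the 225 genes called in either. The 140 genes higher in N2 animals had a median log2 change of 1.19 in sy441 animals and 3.02 in N2 animals, with 130 of them positive in sy441 animals, and the 50 genes higher in sy441 animals had medians of 3.43 and 3.21. Since each set was picked by the test in its own genotype, its median there is not independent of the choice. With genes at 0 in a group set to their bound against the floor, these 4 medians did not move. A median does not depend on how far the outer values lie, so this is no check of the 4 medians.

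Whether the responses differ was tested gene by gene with the interaction of genotype and heat shock. It called 2 genes, 0.0111% of those tested, with 455 at an unadjusted p under 0.05 and 30 called by DESeq2. *gst-36* (WBGene00001784, chromosome X from 9861646 to 9862960), a glutathione S-transferase gene, had 32.9, 22.5 and 32.3 CPM in heat-shocked sy441 animals, against 28.9, 23.7 and 28.3 CPM in untreated ones (log2 change 0.12 ± 0.20 SE, edgeR adjusted p = 1). In N2 animals it had 114, 139 and 159.7 CPM after heat shock, against 14.4, 15.8 and 14.8 CPM (log2 change 3.20, edgeR adjusted p = 2.18e-05). The responses differed by -3.08 on the log2 scale (SE 0.29, edgeR adjusted p = 0.00124), and this held in all 12 fits without 1 library. *gst-36* overlaps *scav-5* on the opposite strand, whose own level was 4.18, 1.69 and 2.78 CPM in heat-shocked sy441 animals, against 11.4, 5.68 and 4.72 CPM in untreated ones.

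*C01G5.3* was the second gene. It had 0.105, 0.254 and 0.0979 CPM in heat-shocked sy441 animals, against 0.145, 0.23 and 0.226 CPM in untreated ones, and 1.90, 1.31 and 1.22 CPM in heat-shocked N2 animals, against no count in untreated N2 animals. In N2 animals it was thus at least 114-fold higher after heat shock, while in sy441 animals the libraries overlapped at a low level. Its interaction adjusted p was 0.0391 and rose to as much as 0.238 when single libraries were left out, among them N2 heat shock replicate 1 (0.238), N2 heat shock replicate 2 (0.18) and sy441 control replicate 2 (0.139).

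For the heat shock proteins the interaction passed no test after adjustment. The log2 response of *hsp-16.2* was 6.24 in sy441 and 6.75 in N2 animals, a difference of -0.51 (SE 0.55, edgeR adjusted p = 1). That of *hsp-16.1* was 4.26 and 5.61, a difference of -1.35 (SE 0.49, unadjusted p = 0.0167, adjusted p = 1), and that of *hsp-16.48* was 3.49 and 5.81, a difference of -2.32 (SE 0.82, unadjusted p = 0.0138, adjusted p = 1). The summed *hsp-16* level in N2 animals was 11313, 3373 and 3665 CPM after heat shock, against 59.6, 80.5 and 138 CPM, and the lowest heat-shocked N2 library lay below the highest heat-shocked sy441 library at 3608 CPM. *hsp-70* had 362, 393 and 478 CPM in heat-shocked N2 animals, against 6.04, 8.54 and 5.06 CPM (log2 change 5.97, difference -1.12 ± 0.57 SE, unadjusted p = 0.0698). *F44E5.4* went the other way, with a log2 change of 4.88 in sy441 and 2.73 in N2 animals (edgeR adjusted p = 0.0544 in N2), a difference of 2.15 (SE 0.82, unadjusted p = 0.021, adjusted p = 1). In N2 animals it had 235, 264 and 344 CPM after heat shock, against 40.5, 57.3 and 29 CPM. In the heat-shocked sy441 libraries the raw counts of *F44E5.4* were 141751, 18233 and 38497, with replicate 1 far above the others. Without that library its sy441 log2 change was 3.51, so the size of the difference rests in large part on 1 library. A p that misses the threshold at these standard errors does not show that the genotypes responded alike.

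**Figure D5:**
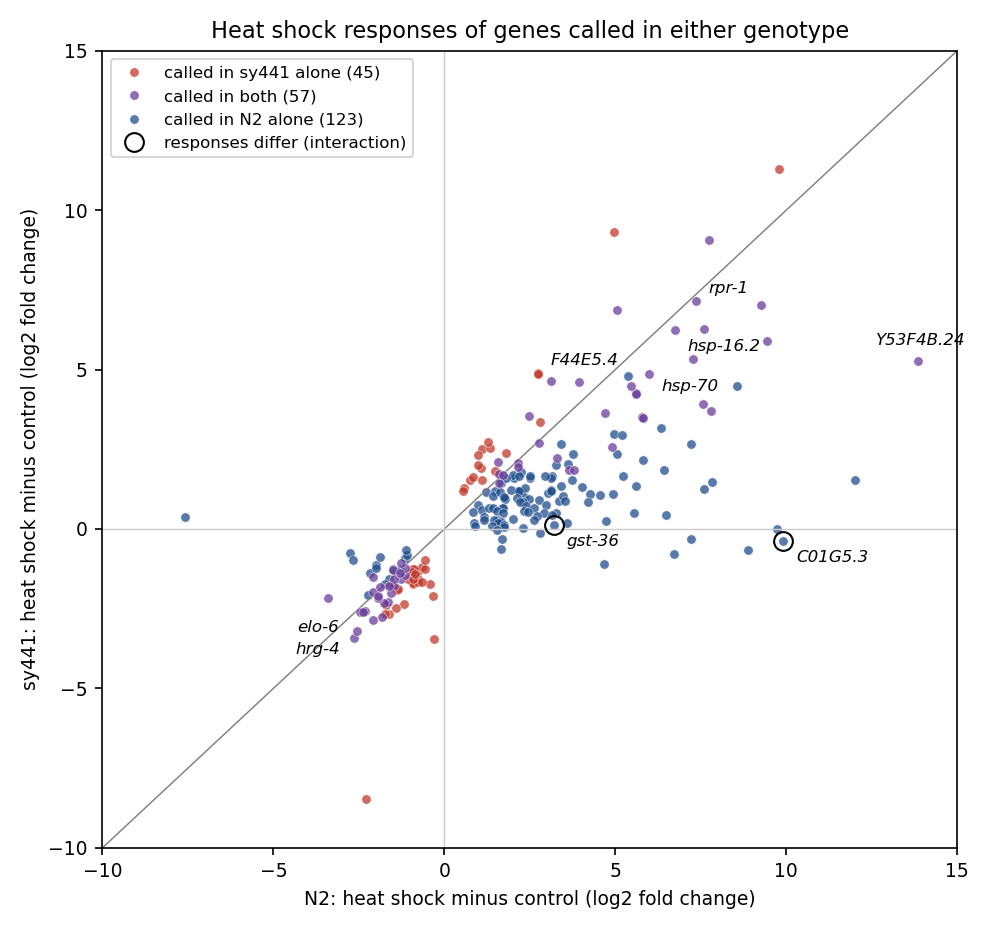
Log2 fold change after heat shock in sy441 (vertical axis) and N2 animals (horizontal axis) for every gene called in either genotype, coloured by where it was called, with the line of equal response and rings around the genes whose responses differed in the interaction test. *hsp-16.2*, at 6.24 and 6.75, lies near the line and *gst-36*, at 0.12 and 3.20, far below it. Points of genes with no count in a group depend on the prior count of the fit.

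The *Y53F4B* genes showed the same order in all 5 members without passing the interaction test after adjustment. The set was picked after its values were seen, and whether its genes share reads was not tested. *Y53F4B.8* had 46.3, 25.9 and 53.8 CPM in heat-shocked N2 animals, against 0.198, 0.196 and 0.26 CPM in untreated ones, a log2 change of 7.57 beside 3.92 in sy441 animals (difference -3.66 ± 0.73 SE, unadjusted p = 0.000229, adjusted p = 0.513). *pgp-8* and *gst-24* lay on the other side, with log2 changes of 3.56 and 2.50 in sy441 animals and 2.47 and 1.12 in N2 animals, and differences of 1.08 (unadjusted p = 0.141) and 1.38 (0.0254), both with an edgeR adjusted p of 1. Among the falls, *elo-6* changed by -2.59 in sy441 and -2.46 in N2 animals, a difference of -0.13 (SE 0.46), and *hrg-4* by -3.40 and -2.64 (difference -0.77 ± 0.66 SE). *pept-1* changed by -1.50 and -2.08 (difference 0.59 ± 0.28 SE, unadjusted p = 0.0524), and *ifc-1* by -1.73 and -0.42 (difference -1.31 ± 0.34 SE, unadjusted p = 0.00203, edgeR adjusted p = 1).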

How the data were processed

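The authors deposited raw read counts for 46934 genes in 12 libraries of whole animals, made from poly-A RNA on the WBcel235 build (FastQC, HISAT2, HTSeq), and they used edgeR for their own tests. Tool versions, the annotation release and the strand setting are not given in the sources used here. Positions were found for 46924 genes. Symbols came from the deposited table (44160), a table of gene names (5) or the RefSeq gene at the same position (2733), and 36 genes kept their identifier.

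Here filterByExpr in edgeR 4.0.16 (R 4.3.3) kept 17946 genes, which were scaled by TMM and fitted with 1 mean per group over all 12 libraries (quasi-likelihood F test, robust, Benjamini-Hochberg over all genes). Gene lists were described by counts and medians without a set test. The members and lists were chosen with earlier results of these data known. Named genes are the *hsp-16*, other small heat shock protein and cytosolic HSP70 genes, the 20 largest rises and 15 largest falls without overlap whose higher group averaged 1 CPM or more, up to 4 called members of each list (or 2 by p), the interaction calls, and genes that the paper names. All other genes were named after their values were seen. A fold against a group without a count uses a floor of 3 counts over the group. Alternatives were DESeq2 1.42.0, RLE factors, no filter, no robust estimation, the newer quasi-likelihood form, a size limit of 1 on the log2 fold change, only the groups compared, a replicate block and leaving out libraries.

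The paired fit used the 6 sy441 libraries with the replicate number as a block. The deviations from the group mean of same-numbered heat-shocked and untreated sy441 libraries correlated over genes at 0.342, 0.336 and 0.199, and every other pair at -0.297 to -0.0275. Deviations from a group mean cancel over the libraries of the group, so the negative values of the other pairs follow from the positive ones. They are no separate evidence. The pairing comes from these correlations and not from the labels, so calls of the paired fit are no independent support for the other calls. In N2 animals same-numbered libraries correlated at -0.363, 0.218 and -0.316. The titles call the replicates biological but do not say whether they are separate cultures, so the spread that p-values rest on may be technical in part. The fits were tested on simulated data. No library was a copy of another, since replicates differed far beyond sampling noise (median ratio of squared difference to counting variance 15.3 to 279).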

Additional observations from a re-analysis of the deposited data

Results flagged for a closer look

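The heat shock response of *gst-36* differed between the genotypes by a test of the difference itself, at -3.08 on the log2 scale (sy441 response minus N2 response, edgeR adjusted p = 0.00124). Over the planned and added settings the difference lay between -3.19 and -2.85, and each kept the call. In *C01G5.3* the difference was -10.31 (edgeR adjusted p = 0.0391), a fitted value that depends on the prior count because untreated N2 animals had no count. Its adjusted p lay between 0.0257 and 0.282 over edgeR's alternatives, the highest being that without both sy441 replicate 1 libraries.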

How the results depend on the processing

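No call changed direction under any setting. In sy441 animals, DESeq2 called 186 genes higher and 220 lower, the newer quasi-likelihood fit 80 and 85, and the fit without the N2 libraries that stand apart (N2 control replicate 3 and heat shock replicate 1, chosen after seeing the data) 93 and 155. With the replicate number as a block, the sy441 libraries alone gave 263 and 356, the 12-library fit 44 and 41, and a block within sy441 (chosen after seeing the data) 71 and 91. Without both sy441 replicate 1 libraries the counts were 59 and 26. The fits without 1 library gave 17 to 86 higher and 15 to 87 lower. Higher genes numbered 86 without sy441 control replicate 1, 17 without replicate 2 and 27 without replicate 3, and 30 without heat shock replicate 3. Lower genes numbered 28 and 32 without sy441 control replicates 2 and 3, 19 and 15 without heat shock replicates 2 and 3, 87 without N2 control replicate 3, and 81 and 29 without N2 heat shock replicates 1 and 2.

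The interaction called 30 genes with DESeq2, 1 with a replicate block over 12 libraries, 1 with a block within sy441, 1 without both sy441 replicate 1 libraries and 1 to 4 without 1 library. In N2 animals DESeq2 called 339 higher and 171 lower, only the groups compared gave 88 and 24, the fit without both sy441 replicate 1 libraries gave 82 lower, and the fits without 1 library 71 to 152 and 12 to 75.

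Of the 102 calls in sy441 animals, RLE factors kept 102, DESeq2 101, the newer quasi-likelihood fit 100, no filter 92, only the groups compared 80, and the fit without both sy441 replicate 1 libraries 45. Single leave-outs kept 43 to 102. The cause of these shifts was not tested. With 3 libraries a group, an absent call does not show that a gene did not respond. The count of heat shock elements in promoters was not run, as no promoter sequences were used here.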
